A study of Cucumis melo with 24 samples.

Results

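STAY-GREEN (MELO3C005616.2), described in the deposited table as a chloroplast protein of that name, is 1 of 29980 genes measured in melon fruit flesh. It was chosen on its measured level in these libraries, with its differences between genotypes and ages already known, so its own values are given as a description with no test. It is set beside the 19 genes that the table describes as chlorophyll a-b binding proteins (CAB genes), which were chosen by description. The flesh came from Cucumis melo fruit of 2 genotypes, wild type (WT) and cmnac-nor mutant, picked 15, 25, 35 or 45 days after pollination (DAP), with 3 RNA-seq libraries for each of the 8 combinations and 24 in all. The sources used here give neither the cultivar, nor how the mutation was made, nor whether a group's libraries are separate fruits or separate plants, so spreads and p-values describe these libraries and may be technical.

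In leaves and fruit, loss of green colour follows a fixed route in the chloroplast. In Arabidopsis, STAY-GREEN protein takes magnesium out of chlorophyll a, pheophytinase then cuts off the phytol tail, pheophorbide a oxygenase opens the ring and red chlorophyll catabolite reductase acts on the opened product. Chlorophyll b enters this route only after chlorophyll b reductase and 7-hydroxymethyl chlorophyll a reductase have turned it into chlorophyll a. Plants that lack STAY-GREEN, such as the green-flesh mutant of tomato and stay-green rice and pea, keep chlorophyll and the light-harvesting proteins that hold it. CAB genes encode those light-harvesting proteins. CmNAC-NOR encodes a NAC transcription factor and its relative in tomato, NOR, is named for the non-ripening mutant.

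STAY-GREEN rose early and fell late in WT flesh, and stayed low until the last age in mutant flesh. At 15 DAP the WT libraries held 92.92, 112.9 and 93.25 TPM (a level scaled to transcript length and to all transcripts of the library). At 25 DAP they held 797.58, 573.38 and 736.71 TPM, and at 35 DAP they held 557.67, 388.5 and 593.02 TPM. Every WT library at 25 or 35 DAP therefore lay above every WT library at 15 DAP. At 45 DAP the WT libraries held 157.28, 246.93 and 203.12 TPM, below all those at 25 and 35 DAP and above all those at 15 DAP.

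The mutant libraries held 26.42, 29.19 and 33.45 TPM of STAY-GREEN at 15 DAP. At 25 DAP they held 24.16, 21.46 and 27.52 TPM, and at 35 DAP they held 46.04, 39.63 and 37.89 TPM. The libraries at 15 and 25 DAP overlapped, and those at 35 DAP lay above both. At 45 DAP the mutant libraries held 83.8, 108.42 and 100.71 TPM, the highest of the mutant series. No mutant library reached the lowest WT library of its own age.

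**Figure D1:**
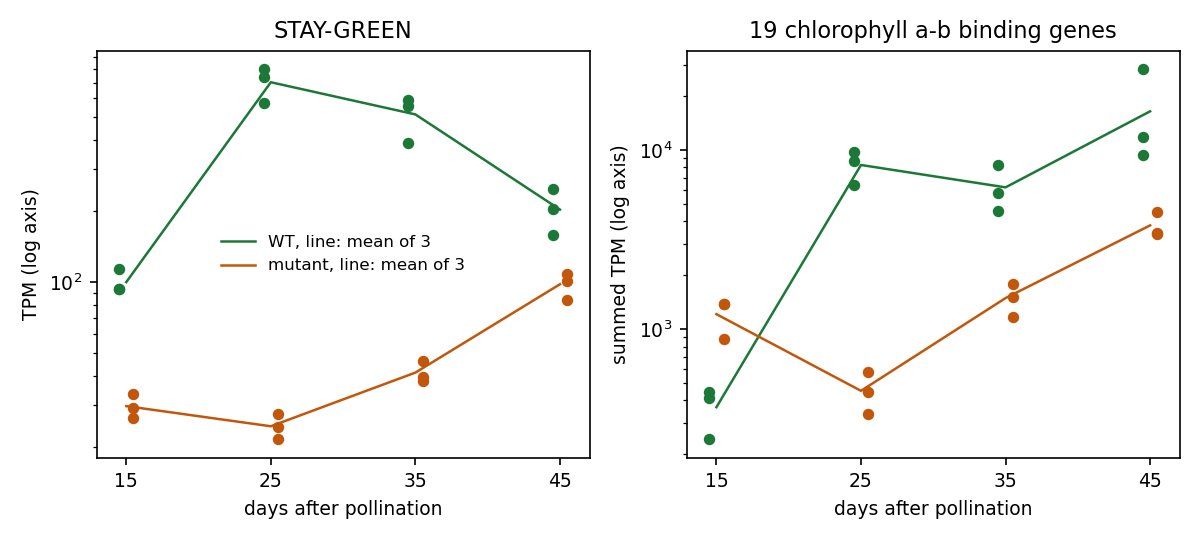
The left panel plots the TPM of STAY-GREEN on a log axis against days after pollination, and the right panel the summed TPM of the 19 CAB genes, with 1 point per library and lines through the means of 3 libraries. WT STAY-GREEN is highest at 25 DAP (702.6 TPM) and mutant STAY-GREEN at 45 DAP (97.6 TPM), while the CAB sum is highest at 45 DAP in both genotypes, with 1 WT library at 28240.5 TPM.

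As group means with SD (n = 3), STAY-GREEN ran from 99.7 ± 11.4 TPM through 702.6 ± 115.9 and 513.1 ± 109.3 to 202.4 ± 44.8 TPM in WT. In the mutant it ran from 29.7 ± 3.54 through 24.4 ± 3.04 and 41.2 ± 4.29 to 97.6 ± 12.6 TPM. In order of age, the WT mean was 3.36, 28.8, 12.5 and 2.07 times the mutant mean. The lowest WT library exceeded the highest mutant library by 2.78, 20.8, 8.44 and 1.45 times at these ages. In bulk flesh, fewer cells that hold a transcript and less of it per cell cannot be told apart.

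Ordered by mean level, the 8 groups ran WT 25, WT 35, WT 45, WT 15, mutant 45, mutant 35, mutant 15 and mutant 25 DAP. Neighbours overlapped in 3 places, between WT 25 and WT 35, between WT 15 and mutant 45, and between mutant 15 and mutant 25 DAP. The oldest mutant flesh thus held about as much STAY-GREEN as the youngest WT flesh, with a ratio of means of 1.02.

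On the scale of log2(TPM + 1), which understates changes of low genes, the mutant minus WT difference of STAY-GREEN was -1.71 (SE from its own groups 0.13) at 15 DAP and -4.79 (SE 0.17) at 25 DAP. It was -3.59 (SE 0.21) at 35 DAP and -1.03 (SE 0.22) at 45 DAP. Of the 17658 genes that reached 1 TPM in at least 3 libraries, 125 had a lower difference than STAY-GREEN at 25 DAP, against 1940 at 45 DAP. The median gene also moved, by 0.03, 0.44, 0.27 and 0.22 in order of age, and with median-of-ratios scaling the differences of STAY-GREEN were -5.23 at 25 DAP and -3.84 at 35 DAP.

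Between neighbouring ages, the log2 level of STAY-GREEN in WT moved by 2.80 (SE 0.17), -0.46 (SE 0.24) and -1.34 (SE 0.27). In the mutant it moved by -0.27 (SE 0.14), 0.74 (SE 0.13) and 1.22 (SE 0.14). From 35 to 45 DAP the genotypes went opposite ways without overlap. All WT libraries at 45 DAP lay below those of WT at 35 DAP, and all mutant libraries at 45 DAP lay above those of the mutant at 35 DAP.

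The CAB genes were mostly highest at the last age in both genotypes, which is the age of highest STAY-GREEN in the mutant but not in WT. Their median Pearson's r with STAY-GREEN on log2(TPM + 1), a description over 17 CAB genes, was 0.650 over the 12 WT libraries and 0.671 over the 12 mutant libraries. Of the 19, 18 reached 1 TPM in at least 3 libraries, and MELO3C001992.2 did not. Their summed level at 15 DAP was 447.6, 410.6 and 242.8 TPM in the WT libraries and 1374.3, 1378.4 and 886.2 TPM in the mutant libraries. At 25 DAP the order was turned around, with 9748.4, 6357.4 and 8649.4 TPM in WT and 575.2, 337.8 and 445.7 TPM in the mutant. The genotypes did not overlap at either age.

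At 35 DAP the CAB sum was 5746.0, 4586.0 and 8236.5 TPM in WT and 1514.5, 1794.4 and 1166.4 TPM in the mutant. At 45 DAP it was 9328.2, 11767.4 and 28240.5 TPM in WT and 3409.2, 4522.6 and 3458.6 TPM in the mutant. The WT libraries at 45 DAP lay apart from each other, with replicate 3 far above the others.

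In WT, 16 of the 18 CAB genes had their highest group mean at 45 DAP, when STAY-GREEN was at 28.8% of its own highest mean. Without replicate 3 of WT at 45 DAP the number was 11. All 18 were lowest at 15 DAP, at a median of 2.64% of their own highest mean, where STAY-GREEN was at 14.2%. At 25 DAP the CAB median was 48% and STAY-GREEN was at 100%. At 35 DAP they stood at 49.7% and 73%. In the mutant, 15 of 18 CAB genes were highest at 45 DAP and 12 were lowest at 25 DAP, the same ages at which STAY-GREEN was highest and lowest. The mutant CAB median ran 61.4%, 19%, 38.8% and 100% of the own highest mean, beside 30.4%, 25%, 42.2% and 100% for STAY-GREEN. From 15 to 25 DAP the mutant CAB median thus fell much further than STAY-GREEN, whose libraries overlapped at these ages.

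**Figure D2:**
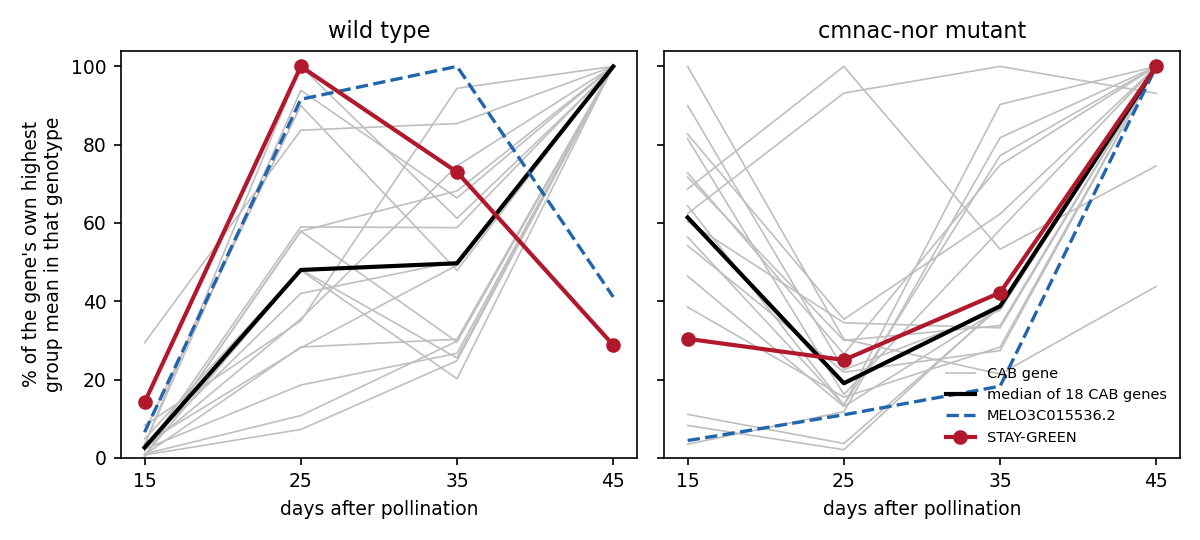
Each line plots a gene's group mean as a percentage of its own highest group mean in that genotype against days after pollination, in WT on the left and in the mutant on the right. In WT the STAY-GREEN line is highest at 25 DAP and ends at 28.8% while the CAB median ends at 100%, and in the mutant both lines are lowest at 25 DAP and highest at 45 DAP.

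The CAB genes were tested with limma-trend over all 17658 genes, at a Benjamini-Hochberg adjusted p under 0.05. From 15 to 25 DAP in WT, 18 of 18 rose (median log2 change 3.73), where 18.5% of all genes rose, 44.8% fell and the all-gene median was -0.36. From 25 to 35 DAP in WT, 3 rose and 2 fell, beside 24.8% and 14.1% of all genes. From 35 to 45 DAP in WT, 4 rose and 1 fell, beside 7.2% and 8.77% of all genes, and the fit to those groups alone called 0 of the rises. Leaving out WT 45 DAP replicate 3 left 1 rise, leaving out replicate 1 of that group gave 8, and leaving out mutant 15 DAP replicate 3 gave 7.

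In the mutant, 12 of 18 CAB genes fell from 15 to 25 DAP and 0 rose, beside 8.12% and 10.9% of all genes. That number was 2 in the fit to those groups alone, 2 without mutant 15 DAP replicate 2 or without mutant 25 DAP replicate 2, 5 without mutant 15 DAP replicate 1, and 7 without mutant 25 DAP replicate 3. From 25 to 35 DAP, 6 rose and 0 fell, beside 10.8% and 9.75% of all genes, with 3 rises left without mutant 35 DAP replicate 2. From 35 to 45 DAP, 9 rose and 0 fell, beside 13.1% and 16.2% of all genes, with 5 rises in the fit to those groups alone.

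The change from 15 to 25 DAP differed between genotypes in 18 of 18 CAB genes, all lower in the mutant, where 49.8% of all genes had a called step difference. By direction, 2257 of the 17658 genes were called lower and 6531 higher for this step. The median of the CAB differences was -4.82 on the log2 scale, and the STAY-GREEN value was -3.07. From 25 to 35 DAP 7 of 18 differed, 5 of them higher in the mutant, beside 34.1% of all genes in either direction. Of the 17658 genes, 2326 were called higher and 3697 lower for that step. From 35 to 45 DAP 1 of 18 differed, beside 25.1% of all genes, while the STAY-GREEN value for this step was 2.56 and was not tested.

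Between genotypes at one age, the CAB genes and STAY-GREEN lay on opposite sides at 15 DAP and on the same side later. At 15 DAP 14 of 18 CAB genes were higher and 1 was lower in the mutant, where 10.3% of all genes were higher and 7.99% lower. The CAB median difference was 1.68, and the fit to the 15 DAP groups alone called 4 of them higher. Leaving out WT replicate 3, mutant replicate 1 or mutant replicate 2 of that age each left 9 called higher. At 25 DAP 18 of 18 were lower and 0 higher (median -3.47), beside 18.3% and 48.6% of all genes. At 35 DAP 16 were lower and 0 higher (median -2.72), beside 23.2% and 41.2%, and at 45 DAP 17 were lower and 0 higher (median -2.18), beside 22% and 38.5%.

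**Figure D3:**
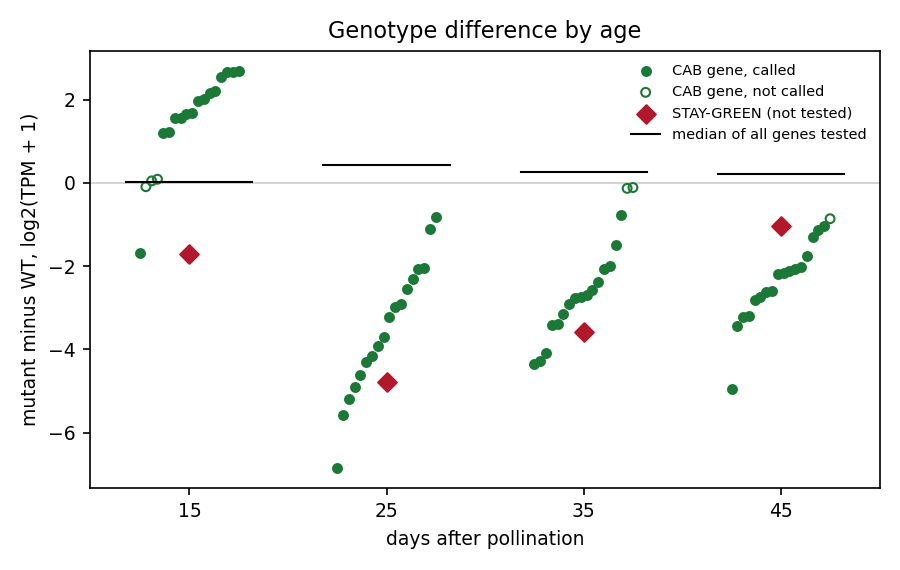
Points plot the mutant minus WT difference in log2(TPM + 1) of each of the 18 CAB genes at each age, filled where called and sorted by value within an age, with diamonds for STAY-GREEN and bars for the median of all genes tested. STAY-GREEN is at -1.71 at 15 DAP, where the CAB median is 1.68, and lies among the CAB genes at 25 and 35 DAP.

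Among the 6 CAB genes with the highest mean level, MELO3C002727.2 had the widest swing. In WT it went from 12.28, 17.27 and 8.46 TPM at 15 DAP to 2614.09, 1455.90 and 2295.05 TPM at 25 DAP. In the mutant it went from 43.51, 63.66 and 47.75 to 21.59, 14.68 and 15.08 TPM. The genotypes did not overlap at either age, and their order changed between them. The mutant minus WT difference was 1.98 (SE 0.42, adjusted p = 0.00299, limma) at 15 DAP and -6.85 (SE 0.42, adjusted p = 1.01e-10) at 25 DAP.

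MELO3C012912.2 showed the strongest return in the mutant. Its mutant mean rose from 31.3 ± 12.8 TPM at 25 DAP to 586.8 ± 244.9 at 35 DAP, when WT stood at 612.1 ± 130.5 TPM. The genotype difference was -5.57 (SE 0.45, adjusted p = 3.43e-09, limma) at 25 DAP and did not pass the test at 35 DAP (-0.11, adjusted p = 0.842) or 45 DAP (-0.86, adjusted p = 0.105, or 0.0363 without WT replicate 1). The other 4 of these genes, MELO3C019677.2, MELO3C015076.2, MELO3C024206.2 and MELO3C004214.2, were called lower in the mutant at each of the last 3 ages, with log2 differences between -4.9 and -2.0. At 15 DAP they were called higher, by 1.21 to 2.02.

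One CAB gene, MELO3C015536.2, followed STAY-GREEN rather than the other CAB genes. Its WT libraries held 2.58, 5.65 and 3.68 TPM at 15 DAP, then 68.18, 44.6 and 53.54 TPM at 25 DAP. They held 66.31, 43.9 and 71.36 TPM at 35 DAP and fell to 19.54, 28.33 and 26.84 TPM by the last age. The mutant libraries held 0.28, 0.44 and 0.81 TPM at 15 DAP and stayed at or below 2.76 TPM until 35 DAP. At 45 DAP they reached 8.17, 18.34 and 8.22 TPM. WT was above the mutant in every library at every age.

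MELO3C015536.2 was the only CAB gene called lower in the mutant at 15 DAP (-1.69, SE 0.28, adjusted p = 0.000412, limma). It was also the only one called lower in WT from 35 to 45 DAP (-1.23, SE 0.28, adjusted p = 0.00609), a call that ended in the fit to those groups alone (adjusted p = 0.0522). In the mutant it rose over the same step by 1.94 (SE 0.28, adjusted p = 5.43e-05). The difference between these steps was 3.17 (SE 0.40, adjusted p = 1.72e-05), the single CAB call for that step. Without WT 45 DAP replicate 3 there were 3 such calls, and without replicate 2 of either genotype at 35 DAP there were 2. Its level lay far below that of the other CAB genes named here, and near-identical CAB copies may share reads, so its values and theirs are uncertain to that extent.

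Set against the CAB sum of the same library, STAY-GREEN in WT was highest at 15 DAP, overlapped between 25 and 35 DAP and was lowest at 45 DAP. In order of age it stood at 288.8 ± 89.0, 85.7 ± 4.21, 84.6 ± 12.5 and 15.0 ± 7.08 TPM per 1000 TPM of CAB transcripts (SD, n = 3). In the mutant the ratio was 26.0 ± 10.2, 55.8 ± 11.9, 28.3 ± 5.5 and 25.9 ± 2.81. The WT mean was above the mutant mean until 35 DAP and below it at 45 DAP.

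The other genes of chlorophyll breakdown did not share 1 course. The list held 14 genes without STAY-GREEN, of which 11 could be tested and MELO3C002961.2, MELO3C014286.2 and MELO3C028457.2 could not. Mutant flesh was higher in 1 and lower in 3 of them when youngest, then higher in 1 and lower in 4, higher in 4 and lower in 4, and at 45 DAP higher in 5 and lower in 0. The median differences were 0.01, -0.03, -0.25 and 0.28, beside all-gene medians of 0.03, 0.44, 0.27 and 0.22. At 35 DAP, where the median was -0.25, the mean was 0.22. Among all genes, the shares higher in the mutant were 10.3%, 48.6%, 41.2% and 38.5% and the shares lower 7.99%, 18.3%, 23.2% and 22% in order of age. Of the 11 breakdown genes, 9.09%, 9.09%, 36.4% and 45.5% were higher and 27.3%, 36.4%, 36.4% and 0% lower. In the fit to the 15 DAP groups alone 1 call was made at 15 DAP, and leaving out WT replicate 1 or mutant replicate 3 of that age gave 2. At 45 DAP median-of-ratios scaling gave 3 calls, as did leaving out any library of that age other than WT replicate 3.

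At the step after STAY-GREEN, pheophytinase (MELO3C023590.2) changed direction with age. It held 179.53, 202.46 and 215.73 TPM in WT and 33.91, 42.07 and 108.27 TPM in the mutant at 15 DAP. At 45 DAP it held 79.54, 81.1 and 108.13 TPM in WT and 249.3, 253.58 and 213.42 TPM in the mutant. The groups did not overlap at either age, and the order was reversed between them. The differences were -1.87 (SE 0.36, adjusted p = 0.00136, limma) at 15 DAP and 1.41 (SE 0.36, adjusted p = 0.00226) at 45 DAP. The first call ended in the fit to the 15 DAP groups alone (adjusted p = 0.0927).

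Pheophytinase MELO3C023590.2 did not differ beyond its spread at 25 DAP (-0.03, adjusted p = 0.949, limma) and was called lower at 35 DAP (-0.99, adjusted p = 0.0218). That call ended in the fit to the 35 DAP groups alone (adjusted p = 0.0682) and without WT replicate 1 (0.0512), WT replicate 3 (0.0831) or mutant replicate 2 of that age (0.154). A second gene described as pheophytinase, MELO3C016375.2, had group means between 2.71 and 5.98 TPM and no call between genotypes, although quantile normalization called it lower in the mutant at 25 DAP (-0.54, adjusted p = 0.0318) and 35 DAP (-0.99, adjusted p = 0.000442).

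Pheophorbide a oxygenase (MELO3C004867.2), the ring-opening enzyme, had the highest r with STAY-GREEN over the 24 libraries of the 7 breakdown genes ranked (0.858, a description), and like it stayed low in the mutant until 35 DAP. It held 90.35, 81.42 and 78.3 TPM in WT and 28.24, 26.78 and 32.93 TPM in the mutant at 25 DAP. The difference was -0.60 at 15 DAP (SE 0.12, adjusted p = 0.00204, limma), -1.48 at 25 DAP (adjusted p = 4.83e-09) and -1.42 at 35 DAP (adjusted p = 7.61e-09). From 35 to 45 DAP the mutant libraries rose from 28.01, 23.61 and 26.76 to 78.06, 81.39 and 81.84 TPM, above every WT library at 45 DAP. This rise was 1.59 on the log2 scale (SE 0.12, adjusted p = 1.94e-08), while WT moved by -0.11 (adjusted p = 0.628). The genotype difference at 45 DAP was 0.28 (adjusted p = 0.0499), a call that ended under 23 of 30 alternatives, among them median-of-ratios scaling (0.06, adjusted p = 0.715).

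Another gene described as pheophorbide a oxygenase, MELO3C035546.2, was higher in the mutant late. Its means were 7.16 ± 0.924 TPM in WT and 19.0 ± 2.6 TPM in the mutant at 35 DAP, and 8.01 ± 1.17 and 19.5 ± 2.21 TPM at 45 DAP. The differences were 1.29 (SE 0.21, adjusted p = 2.7e-05, limma) and 1.19 (SE 0.21, adjusted p = 7.9e-05). MELO3C035541.2, of the same description, was listed at 0 in 21 of 24 libraries.

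Both genes described as red chlorophyll catabolite reductase-like were higher in the mutant late. MELO3C020913.2 held 89.15, 75.21 and 98.59 TPM in WT and 207.89, 356.9 and 297.52 TPM in the mutant at 35 DAP. These libraries did not overlap, and the difference was 1.68 (SE 0.30, adjusted p = 6.41e-05, limma). It was 1.28 at 45 DAP (adjusted p = 0.000972). MELO3C020912.2 was lower in the mutant at 25 DAP (-0.73, SE 0.20, adjusted p = 0.00291) and higher at 35 DAP (1.10, adjusted p = 7.27e-05). Its call at 45 DAP (0.50, adjusted p = 0.0361) ended with median-of-ratios scaling (adjusted p = 0.29) and without any of the 45 DAP libraries other than WT replicate 3 (adjusted p from 0.0527 to 0.168). The identifiers of this pair are neighbours, and reads may be split between similar copies.

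On the chlorophyll b side, 7-hydroxymethyl chlorophyll a reductase (MELO3C006358.2) peaked with STAY-GREEN in WT. It held 32.75, 31.65 and 34.08 TPM in WT and 12.36, 7.76 and 10.32 TPM in the mutant at 25 DAP. The difference was -1.62 (SE 0.19, adjusted p = 7.07e-07, limma) at that age and -1.12 (adjusted p = 5.58e-05) at 35 DAP, and neither the first age (0.52, adjusted p = 0.0695) nor the last (0.05, adjusted p = 0.853) gave a call. The chlorophyll b reductase NOL (MELO3C019918.2) had group means between 5.87 and 9.56 TPM and no call between genotypes, although quantile normalization called it lower in the mutant at 25 DAP (-0.58, adjusted p = 0.0194) and 35 DAP (-0.74, adjusted p = 0.00384).

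STAY-GREEN LIKE (MELO3C008435.2), a relative of STAY-GREEN, had the same age of highest WT level and lower values throughout. Its WT libraries held 18.91, 16.17 and 19.47 TPM at 25 DAP, and its mutant libraries held 7.37, 6.25 and 6.43 TPM. The mutant was lower at 25 DAP (-1.32, SE 0.23, adjusted p = 4.48e-05, limma) and at 35 DAP (-1.38, SE 0.23, adjusted p = 2.87e-05). The call at 15 DAP (-0.73, adjusted p = 0.0298) ended in the fit to those groups alone (adjusted p = 0.187) and without WT replicate 1 (0.0886), WT replicate 2 (0.0914) or mutant replicate 3 (0.134). At 45 DAP it gave no call (-0.35, adjusted p = 0.194), against 0.000691 with quantile normalization. Unlike STAY-GREEN, its mutant level was highest at 25 DAP, at 6.68 ± 0.601 TPM.

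The chlorophyllase-1-like gene MELO3C014304.2, named for an enzyme that removes phytol from chlorophyll, was listed at 0 in every WT library at 25 and 35 DAP. The mutant libraries held 1.09, 11.01 and 0.82 TPM at 25 DAP and 8.24, 1.69 and 5.08 TPM at 35 DAP. It was called higher in the mutant at all ages but the last (adjusted p = 0.0298, 0.00798 and 0.00105, limma). The first of these calls ended in the fit to the 15 DAP groups alone (adjusted p = 0.135) and without 4 of those 6 libraries in turn (0.0631 to 0.125). The second ended in the fit to the 25 DAP groups alone (0.0734) and without mutant replicate 2 (0.0737).

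**Figure D4:**
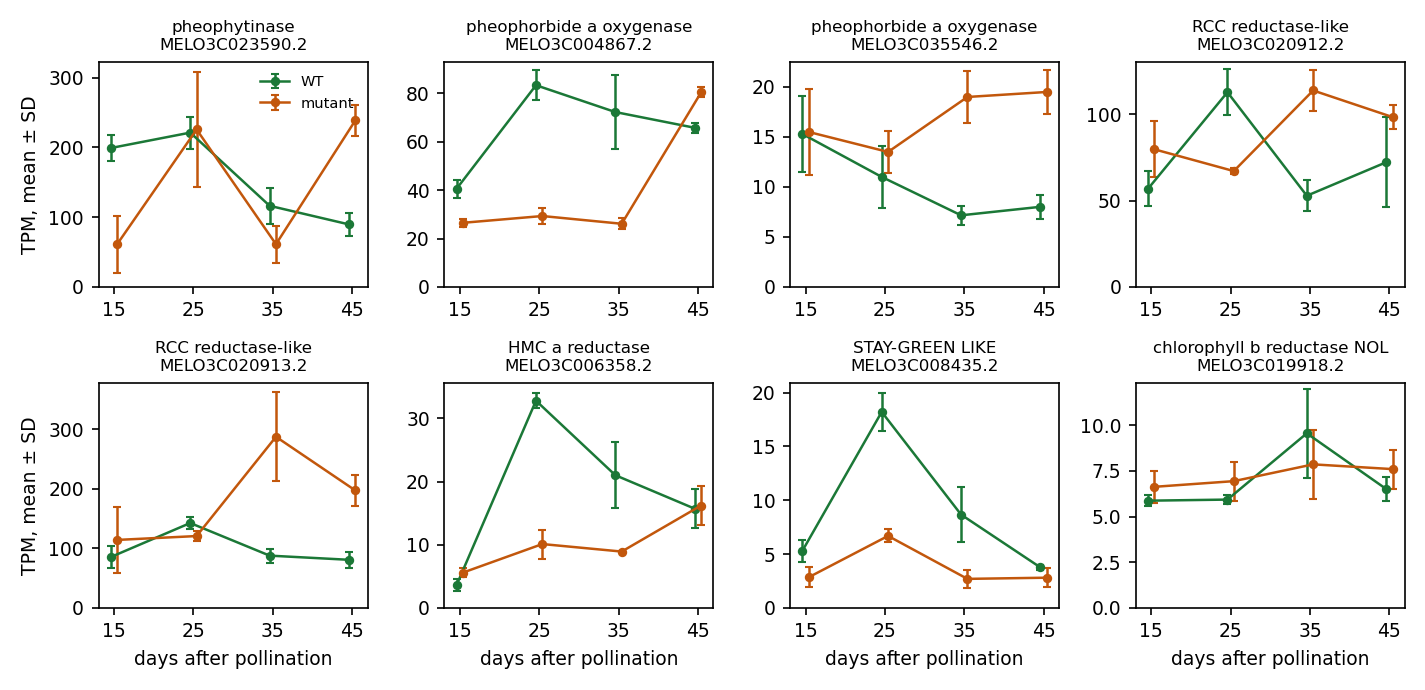
Panels plot the mean TPM ± SD of 3 libraries against days after pollination for 8 tested genes of chlorophyll breakdown, in WT and in the mutant (RCC, red chlorophyll catabolite; HMC, 7-hydroxymethyl chlorophyll). The WT lines of pheophorbide a oxygenase MELO3C004867.2, 7-hydroxymethyl chlorophyll a reductase and STAY-GREEN LIKE are highest at 25 DAP, and mutant levels of both RCC reductase-like genes stand above WT late.

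Chlorophyll synthesis genes were called in both directions at every age, and at 45 DAP at about the rate of all genes. Of 32 listed, 31 were tested, and in order of age 7, 7, 9 and 12 were higher in the mutant and 1, 16, 10 and 8 lower. Their medians were 0.27, -0.45, -0.08 and 0.12, the last beside a mean of -0.04. The shares higher were 22.6%, 22.6%, 29% and 38.7%, beside 10.3%, 48.6%, 41.2% and 38.5% of all genes, and the shares lower were 3.23%, 51.6%, 32.3% and 25.8%, beside 7.99%, 18.3%, 23.2% and 22%. The count of 7 higher at 15 DAP was 2 in the fit to those groups alone and 4 without WT replicate 3 or mutant replicate 2, and that of 12 higher at 45 DAP was 7 with quantile normalization.

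The magnesium chelatase subunit MELO3C023131.2, part of the enzyme that puts in the magnesium STAY-GREEN takes out, was at 158.6 ± 18.9 TPM in WT and 7.65 ± 1.37 TPM in the mutant at 25 DAP (-4.21, SE 0.33, adjusted p = 2.96e-09, limma). The monomethyl ester cyclase MELO3C026802.2, a later enzyme of that branch, was at 677.2 ± 74.9 and 60.8 ± 13.1 TPM (-3.47, adjusted p = 5.52e-09). Both were thus lower in the mutant at the age when STAY-GREEN was highest in WT. Chlorophyll synthase (MELO3C026000.2), which attaches the phytol tail, went the other way at 35 DAP, with 27.5 ± 1.64 TPM in WT and 69.7 ± 4.83 in the mutant (1.31, adjusted p = 1.4e-09).

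Photosystem genes other than the CAB genes were tested for 56 of 78. In order of age, 12, 2, 4 and 4 were higher in the mutant and 1, 34, 16 and 15 lower, with medians of 0.40, -1.41, -0.28 and -0.44 beside all-gene medians of 0.03, 0.44, 0.27 and 0.22. The shares higher were 21.4%, 3.57%, 7.14% and 7.14%, of which the last 3 lay well under the 48.6%, 41.2% and 38.5% of all genes and the first above their 10.3%. The shares lower were 1.79%, 60.7%, 28.6% and 26.8%, beside 7.99%, 18.3%, 23.2% and 22% of all genes, so that the last pair lay close to the background. The gene of photosystem I subunit N, MELO3C008060.2, had 588.5 ± 142.7 TPM in WT and 16.6 ± 2.83 TPM in the mutant at 25 DAP (-5.05, SE 0.32, adjusted p = 1.65e-10, limma). A PsbP family gene, MELO3C004308.2, was higher in the mutant at the same age, at 25.3 ± 1.75 against 6.49 ± 0.095 TPM (1.81, adjusted p = 7.37e-10).

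Both tested genes described as APRR2, a class of response regulator linked to plastid number and pigment in tomato and pepper fruit, differed between genotypes in opposite directions. MELO3C003375.2 was at 367.9 ± 44.9 TPM in WT and 4.93 ± 2.13 TPM in the mutant at 25 DAP (-6.01, SE 0.73, adjusted p = 7.68e-07, limma). It was also lower at 35 DAP (-4.40, adjusted p = 3.18e-05) and did not pass the test at 45 DAP (-1.51, adjusted p = 0.0809, or 0.00281 in the fit to those groups alone). MELO3C013874.2 was at 3.19 ± 0.156 and 33.4 ± 3.45 TPM at 25 DAP (3.04, SE 0.26, adjusted p = 9.54e-09). Its mutant excess was 3.68 at 35 DAP and 4.88 at 45 DAP, both called. Of the 5 regulators listed, 3 were too low to test.

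Chloroplast protease genes, FtsH, Clp and protease Do-like by description, could be tested for 49 of 82, and some of them belong to mitochondria. In order of age, 6, 11, 11 and 12 were higher in the mutant and 2, 23, 19 and 17 lower, with medians of 0.09, -0.41, -0.25 and -0.13 beside all-gene medians of 0.03, 0.44, 0.27 and 0.22. The shares higher were 12.2%, 22.4%, 22.4% and 24.5%, beside 10.3%, 48.6%, 41.2% and 38.5% of all genes, and the shares lower were 4.08%, 46.9%, 38.8% and 34.7%, beside 7.99%, 18.3%, 23.2% and 22%. At 15 DAP both shares were near the background. FTSH 2 (MELO3C018713.2), known in Arabidopsis for turnover of photosystem II protein, was at 228.2 ± 15.6 TPM in WT and 65.7 ± 7.03 TPM in the mutant at 25 DAP (-1.78, SE 0.15, adjusted p = 5.87e-09, limma).

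The genes whose levels most resembled STAY-GREEN were ranked by Pearson's r of log2(TPM + 1) over the 24 libraries, among 13005 genes with a group mean of at least 10 TPM. The points share groups of 3 libraries and library composition, so r is a description. The 8 nearest were a receptor-like protein kinase (MELO3C022355.2), a 2-oxoglutarate and iron-dependent oxygenase (MELO3C004544.2) and a short-chain dehydrogenase/reductase (MELO3C025347.2), each at r = 0.967. Autophagy-related protein 11 (MELO3C004116.2) followed at 0.966 and the CAB gene MELO3C015536.2 at 0.965. Protein bps1 (MELO3C024000.2) was at 0.964, and a beta-galactosidase (MELO3C015470.2) and a mitochondrial pyruvate dehydrogenase kinase (MELO3C003205.2) were at 0.963.

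The median r was 0.712 over 17 CAB genes and -0.338 over all genes ranked. Over the 12 WT libraries r lay between 0.908 and 0.964 for these 8, and 0 of the 8 were among the 8 nearest ranked on those libraries alone. Over the 12 mutant libraries r lay between 0.759 and 0.959. The receptor-like kinase MELO3C022355.2 had mutant means of 0.0, 0.0 and 0.157 TPM at 15, 25 and 35 DAP. The beta-galactosidase MELO3C015470.2, of a class of enzyme that acts on wall sugars, had the widest range, from 78.8 TPM at 15 DAP to 4256.2 TPM at 25 DAP in WT and from 10.1 to 14.0 TPM in the mutant over the same ages. The dehydrogenase/reductase MELO3C025347.2 stood nearest to STAY-GREEN in level, at 522.1 TPM in WT and 34.5 TPM in the mutant at 25 DAP.

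**Figure D5:**
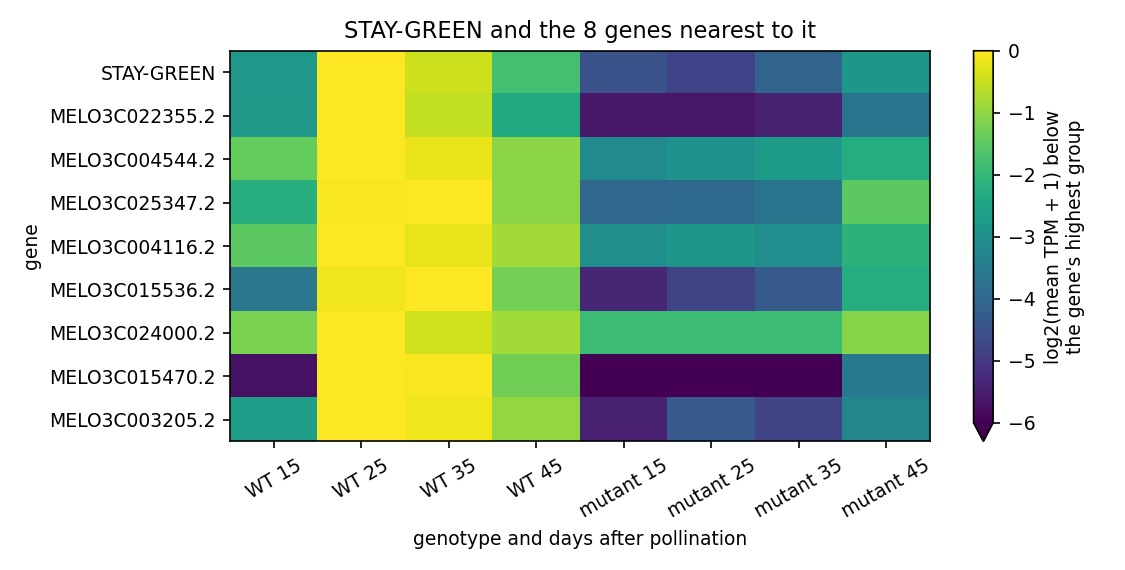
Colours give the log2(mean TPM + 1) of STAY-GREEN and of the 8 genes nearest to it, relative to each gene's highest group, for 4 ages in WT and 4 in the mutant. All 9 rows are brightest in WT at 25 or 35 DAP and the CAB gene MELO3C015536.2, at r = 0.965, is one of them.

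Summed markers of other tissues moved with some of these groups, and their part in the results was not tested. The 12 rind and epidermis markers, 6 of them tested, summed to between 69.7 and 174.9 TPM in WT from 25 DAP on and to between 35.3 and 43.5 TPM in the mutant. The 6 tested did not move together, since from 25 DAP on 2, 2 and 2 were higher in the mutant and 3, 4 and 2 lower. At 35 DAP, for example, MELO3C020426.2 was higher by 3.05 and MELO3C006254.2 differed by -4.21 on the log2 scale, examples chosen after their values were seen. The 18 phloem markers fell in WT from 13759.6 ± 5082.1 TPM at 15 DAP to 126.9 ± 26.9 at 45 DAP and stood at 20840.0 ± 8302.7 and 9061.9 ± 1742.8 TPM in the mutant. The 13 seed markers, 5 of them at 0 in every library, summed to between 39.4 and 47.8 TPM in WT and between 76.1 and 115.5 TPM in the mutant at 25 DAP. Their order was then reversed, with 80.9 to 156.0 TPM in WT and 53.4 to 65.4 TPM in the mutant at 35 DAP. In the oldest flesh the sums were 96.1 to 144.7 TPM in WT and 67.6 to 83.1 TPM in the mutant. The genotypes did not overlap in this sum at any of these 3 ages. Of the 5 seed markers tested, 2, 1 and 2 were higher in the mutant and 1, 1 and 1 lower at those ages. Flesh ripening markers summed to between 11454.7 and 22185.7 TPM in WT from 25 DAP on and to at most 3598.8 TPM in the mutant.

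The transcript of the mutated gene, taken from published work to be MELO3C016540.2, was present in both genotypes. It held 728.97, 1027.46 and 574.7 TPM in WT and 24.61, 101.51 and 319.78 TPM in the mutant at 15 DAP. In the oldest flesh it held 511.14, 430.34 and 432.4 TPM in WT and 1808.23, 1856.79 and 1919.67 TPM in the mutant. The mutant libraries thus lay below WT at 15 DAP and above it at 45 DAP. Since the changed part of the gene is not given in the sources used here, these levels do not check the genotype labels. The differences were -3.00 (SE 0.52, adjusted p = 0.000558, limma) at 15 DAP, with an adjusted p of 0.155 in the fit to those groups alone, and 2.03 (adjusted p = 0.00255) at 45 DAP. Between these ages the mutant was lower at 25 DAP (-1.39, SE 0.52, adjusted p = 0.025, limma) and gave no call at 35 DAP (0.16, adjusted p = 0.81).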

How the data were processed

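RNA from melon fruit flesh was sequenced in 24 libraries, 3 in each of 8 groups of genotype and age, and samples were grouped by their titles. Per the submitters' processing notes the tools were TopHat2, Cufflinks, HISAT2 and StringTie. Their versions, the genome build and the annotation were not given in the sources used here. The authors deposited 1 table of 29980 genes whose values were read as TPM, as decimal numbers whose library totals run from 927159 to 963192. TPM are relative to the other transcripts of a library and keep no depth, so read depth is unknown and no counting interval is given.

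Genes with at least 1 TPM in at least 3 libraries (17658) were tested with limma-trend (limma 3.58.1, R 4.3.3) on log2(TPM + 1), two-sided, in 1 model of 8 group means, with Benjamini-Hochberg adjustment within each comparison. The script was checked on simulated data. Lists were made from words in the table's descriptions, and 0 identifiers matched the reference gene table, so no sequence or coordinate is given. The genes named were STAY-GREEN, CmNAC-NOR, the 8 nearest genes, the 6 CAB genes of highest mean, any CAB gene called against the others, all tested breakdown genes, and some of the 4 with the smallest adjusted p of each other list and comparison at 10 TPM or more. The members and lists were chosen with earlier results of these data known. Alternatives were other pseudocounts, filters and scalings, fits to the groups compared, a replicate block and leaving out each library.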

Additional observations from a re-analysis of the deposited data

Results flagged for a closer look

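Several changes with age differed between genotypes. For STAY-GREEN, all WT libraries at 45 DAP lay below all WT libraries at 35 DAP. All mutant libraries at 45 DAP lay above all mutant libraries at 35 DAP. The difference between these steps was 2.56 on the log2 scale and was not tested. The libraries of the CAB gene MELO3C015536.2 lay the same way, with a tested step difference of 3.17 (limma, adjusted p = 1.72e-05). The step of that gene from 15 to 25 DAP differed by -2.93 (limma, adjusted p = 1.09e-05). Of 18 CAB genes, the steps differed in 18 from 15 to 25 DAP, in 7 from 25 to 35 DAP and in 1 from 35 to 45 DAP. Of 11 chlorophyll breakdown genes, the same steps differed in 4, 3 and 5. Among all genes 49.8%, 34.1% and 25.1% had a called difference in these steps. With both directions pooled, the breakdown counts of 4 and 3 lay below the all-gene shares and that of 5 above its share. The CAB count of 7 lay near its share when pooled in this way. By direction, the breakdown counts were 1 higher and 3 lower, 3 and 0, and 4 and 1. For the CAB genes they were 0 and 18, 5 and 2, and 1 and 0. Among all 17658 genes they were 6531 and 2257, 2326 and 3697, and 2105 and 2333.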

How the results depend on the processing

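The 18 CAB genes lower in the mutant at 25 DAP, the 18 that rose in WT from 15 to 25 DAP and the 18 with a step difference were called under every alternative run. With libraries left out one at a time, CAB genes higher in the mutant at 15 DAP ranged from 9 to 14, rises in WT from 35 to 45 DAP from 1 to 8, falls in the mutant from 15 to 25 DAP from 2 to 12, its rises to 35 DAP from 3 to 8, and step differences from 35 to 45 DAP from 1 to 3. Breakdown calls ranged from 2 to 6 at 15 DAP and from 3 to 5 at 45 DAP, synthesis genes higher at 15 DAP from 4 to 9, and nearest genes shared from 5 to 8. In fits to the groups compared alone, these CAB counts were 4, 0 and 2, the mutant rises from 35 to 45 DAP were 5, and breakdown and synthesis calls at 15 DAP were 1 and 2. With median-of-ratios scaling, STAY-GREEN differed by -5.23 at 25 DAP and -3.84 at 35 DAP, its WT step to 25 DAP was 3.15, the step difference was -3.50, 3 breakdown calls were left at 45 DAP, and 5 of the 8 nearest genes were shared. Quantile normalization also shared 5, called 7 synthesis genes higher at 45 DAP, and turned MELO3C016375.2 (-0.54) and MELO3C019918.2 (-0.58) to lower in the mutant at 25 DAP. Spearman's correlation shared 4 nearest genes and the 12 WT libraries 0. The cause was not tested beyond what each alternative changes by construction. Same-numbered WT and mutant libraries of one age showed no likeness. The 12 correlations of their deviations from group means lay between -0.314 and 0.062, and 2 of 12 were best with their own number. Correlations with other numbers reached 0.386 at 15 DAP, and a link by number across ages was not checked. With the replicate block the CAB counts were 13, 18, 16 and 16 in order of age. The ages of highest and lowest CAB level were recomputed without each library, an alternative chosen after seeing the data. That gave 11 to 17 CAB genes highest at 45 DAP in WT and 10 to 13 lowest at 25 DAP in the mutant. Of 9360 single-gene values under an alternative, 231 lost and 62 gained a call and 2 reversed. A change of sign with no call in either fit was not counted as reversed. Depth is unknown, so what it limits cannot be given, and 3 libraries a group limit all comparisons.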
